A study of Mus musculus with 20 samples.

Results

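The respiratory chain genes described here are the subunit genes of complexes I to V of mitochondria together with the genes carried on the mitochondrial chromosome. They were chosen by symbol from the 55487 genes of the count table: names starting with Nduf (Ndufaf left out), Uqcr, Cox4 to Cox8, Atp5 or mt-, and the 4 genes Sdha to Sdhd, with names holding -ps left out. The rule found 127 genes and used no measured value. Of these, 90 lie in the nucleus and 37 on the mitochondrial chromosome. The nuclear genes comprise 39 of complex I, 4 of complex II, 8 of complex III, 21 of complex IV and 18 of complex V. Of the nuclear genes, 4 are annotated as processed pseudogenes (Ndufa11b, Ndufb4c and Ndufs6b in complex I, Cox6c2 in complex IV). The 37 mitochondrial genes are 13 protein-coding genes, 2 rRNA genes and 22 tRNA genes. Ndufa4 and Ndufa4l2 are counted with complex IV, since Ndufa4 is a subunit of cytochrome c oxidase despite its name. No read was counted in any library for Cox8c, for a second entry under the symbol Atp5o and for 6 of the tRNA genes.

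RNA was sequenced from subcerebral projection neurons, the cortical neurons that send axons to brainstem and spinal cord, of mice at postnatal day 1. There were 4 groups of 5 libraries: somata (cell bodies, source cortex) and growth cones (the tips of growing axons, source brainstem and spinal cord), each from wild-type (WT) neurons and from neurons labelled as null for Bcl11b, a transcription factor gene of these neurons (labelled KO). Libraries are named by the experiment number in their label: 12, 14, 22, 25 and 26 for WT somata, 14, 15, 22, 25 and 26 for somata labelled KO, and 7 to 11 for the growth cones of both genotypes. Compartment therefore goes with dissected region, with experiment number and with input RNA, which was 1.8 to 3.1 ng for soma libraries and 0.19 to 3.1 ng for growth cone libraries per the labels' protocols. The labels do not say whether a library came from 1 animal or from pooled animals, so the p-values below measure the spread between these libraries, which may be partly technical.

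Libraries held 18962308 to 51205154 counts and 17433 to 20084 genes with a count. The targeted gene was checked first. Bcl11b stood at 655 ± 122 CPM (a gene's count scaled to the total of its library; mean ± SD, n = 5) in WT somata and at 1082 ± 53.6 CPM in labelled-KO somata, every one of which was above every WT soma library, and at 108 ± 20.1 and 108 ± 35.3 CPM in WT and labelled-KO growth cones. The count of the whole gene did not fall in the libraries labelled KO. It cannot show an allele that still makes RNA, so "labelled KO" is used throughout and each direction between genotypes rests on the label. The summed level of 12 markers of subcerebral projection neurons ranged over 2196 to 2433 CPM in WT somata and over 919 to 1173 CPM in WT growth cones, so these markers were present in both compartments. Summed markers of several other cell types were higher in WT growth cones than in WT somata. The summed level of 10 astrocyte markers ranged over 364 to 752 CPM in somata and 1083 to 1399 CPM in growth cones. The 10 oligodendrocyte lineage markers summed to 63.9 to 118 and 608 to 2385 CPM, and the 12 vessel, blood and choroid plexus markers to 4.74 to 24.7 and 579 to 968 CPM. The 16 hindbrain and spinal cord markers summed to 0.0527 to 0.242 CPM in WT somata, where Hoxa3, Hoxb3, Hoxc4, Hoxc6 and Chat were at 0 in every library, and to 123 to 212 CPM in WT growth cones. Chat was at 0 in every WT growth cone library as well. Microglia markers overlapped, at 39.6 to 160 and 63.3 to 99.96 CPM. The part of these other cells in the differences between compartments described below was not tested.

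The respiratory chain sits in the inner mitochondrial membrane. Complexes I (NADH dehydrogenase) and II (succinate dehydrogenase) pass electrons to ubiquinone, complex III passes them to cytochrome c and complex IV to oxygen; complexes I, III and IV pump protons, and complex V (ATP synthase) uses the proton gradient to make ATP. Complexes I, III, IV and V are built from subunits of both genomes, whereas all subunits of complex II are nuclear. Neurons carry mitochondria along their axons, and mRNAs of some nuclear-encoded mitochondrial proteins are known to occur in axons.

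Mitochondrial genes have near copies in the nuclear genome, and for short reads this bears on every count of the mitochondrial genome. On chromosome 1 the table lists a run of such copies as genes of their own. The 2 pairs below show how close such copies are: in the first, the copy differs from the mitochondrial gene by 1 base, and in the second it does not differ at all. Positions 1 to 60 of each transcript are given 5′ to 3′ (GRCm38, GENCODE M21 transcripts). The coordinates are chrM:9459-9518 (plus strand) for mt-Nd3, chr1:24613060-24613119 (minus strand) for Gm28438, chrM:7013-7072 (plus strand) for mt-Co2 and chr1:24615506-24615565 (minus strand) for Gm28661. The capital marks the base that differs.
mt-Nd3: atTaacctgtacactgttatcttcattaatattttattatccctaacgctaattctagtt
Gm28438: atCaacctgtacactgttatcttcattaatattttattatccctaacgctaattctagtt
mt-Co2: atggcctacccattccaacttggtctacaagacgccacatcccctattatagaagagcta
Gm28661: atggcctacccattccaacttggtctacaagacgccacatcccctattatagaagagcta

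Counted from 1 at the 5′ end of mt-Nd3, the only substitution over the 345 aligned bases was T3C, with the mitochondrial base first. Over 681 bases of mt-Co2 and Gm28661 there was none. There was likewise none over 783 bases of mt-Co3 and Gm28437, 678 bases of mt-Atp6 and Gm10925, 294 bases of mt-Nd4l and Gm10222 and the first 876 bases of mt-Nd4 and Gm28439. The 3′ end of mt-Co1 (bases 1054 to 1545) and Gm29216 differed at 6 of 492 bases, and mt-Co1 also shared 50-base stretches with Gm13340, a copy on chromosome 2. Expressed as the share of a gene's 50-base stretches that also occur in a transcript of another gene, sharing was 100% for mt-Co2, 99.9% for mt-Co3, 99.5% for mt-Atp6, 98.8% for mt-Nd4l, 98.0% for mt-Nd3, 62.2% for mt-Nd4, 51.1% for mt-Co1, 8.19% for mt-Nd2 and 7.61% for mt-Nd5. It was 0% for mt-Cytb, mt-Nd1, mt-Nd6, mt-Atp8 and the rRNA gene mt-Rnr1.

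The 5 genes shared to 98.0% or more were all counted at low levels, while genes with no sharing ranged from low levels to the highest. In WT somata (n = 5) the copy Gm28661 stood at 11.4 ± 1.95 CPM and mt-Co2, one of the 3 catalytic core subunits of complex IV made in mitochondria, at 11.6 ± 2.85 CPM. The copy Gm28437 stood at 34.1 ± 15.2 CPM and mt-Co3 at 26.2 ± 10.7 CPM. Gm10925 stood at 19.9 ± 8.67 CPM and mt-Atp6, a subunit of the proton channel of complex V, at 12.1 ± 5.45 CPM. Among the genes with no shared stretch, levels differed widely. mt-Cytb, the only mitochondrial subunit of complex III, stood at 1379 ± 228 CPM and mt-Nd1, a membrane subunit of complex I, at 1047 ± 251 CPM. mt-Nd6, another membrane subunit of complex I, stood at 34.1 ± 10.7 CPM, mt-Rnr1 at 32.6 ± 10.2 CPM and mt-Atp8, the other mitochondrial subunit of complex V, at 1.73 ± 0.90 CPM; low levels thus also occurred in genes with no shared stretch. mt-Co1 stood at 948 ± 111 CPM and the copy of its 3′ end, Gm29216, at 9.76 CPM. How reads that map to several places were treated is not given in the sources used here, and its part in these levels was not tested. Counts of mt-Co2, mt-Co3, mt-Atp6, mt-Nd3 and mt-Nd4l are therefore uncertain as levels, and sums over the mitochondrial genome below rest mainly on mt-Cytb, mt-Nd1 and mt-Co1.

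**Figure D1:**
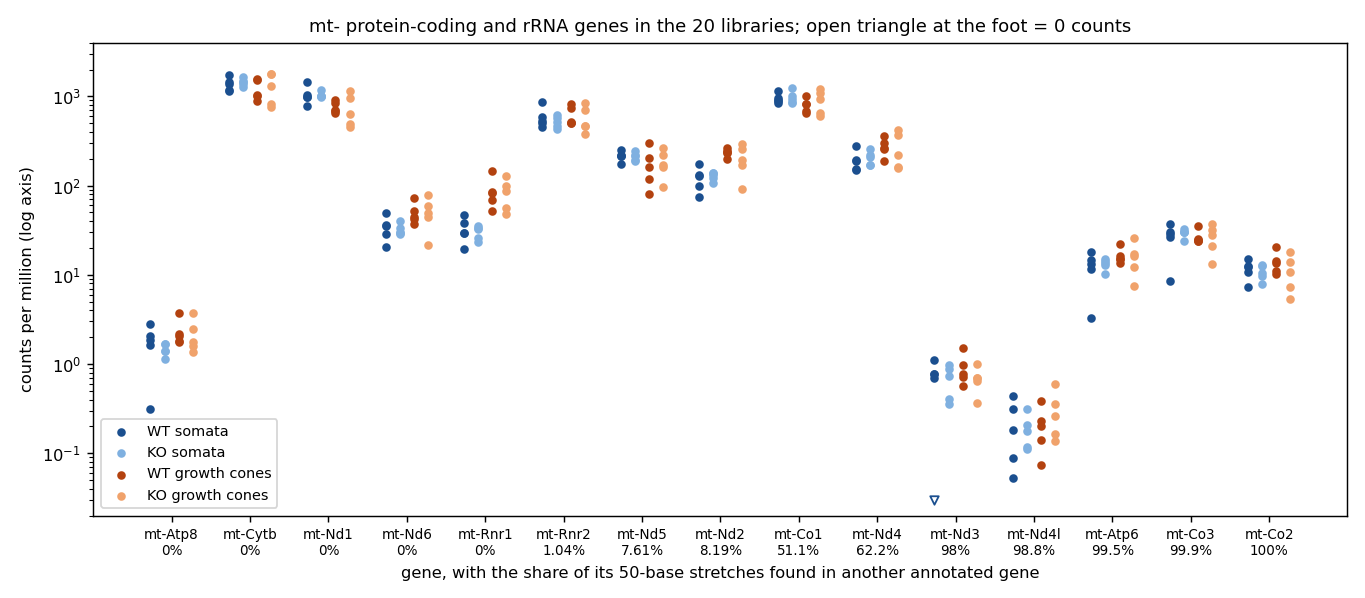
Level of each mitochondrial protein-coding and rRNA gene in the libraries of the 4 groups (CPM on a log axis), with each gene's share of 50-base stretches found in other genes. Genes with shares near 100% lie far below mt-Cytb, mt-Nd1 and mt-Co1 in somata and growth cones alike, and so do mt-Atp8, mt-Nd6 and mt-Rnr1, whose share is 0%.

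Nuclear members share short stretches with other genes less widely. The share was above 10% in Atp5g2 (36.7%), Uqcrb (25.4%), Cox7c (22.1%), Ndufs5 (21.7%), Atp5h (19.9%), Ndufb4 (18.3%), Ndufa12 (17.7%), Ndufs3 (16.1%), Cox7a2l (13.8%), Cox5b (11.9%) and Atp5g1 (11.1%). Among the pseudogenes it was 100% in Ndufb4c, 52.7% in Cox6c2, 25.4% in Ndufs6b and 10.4% in Ndufa11b. Each share is taken over the stretches of all annotated transcripts of a gene, so it can be low although many stretches are shared. Atp5l shared 566 of 6487 stretches (8.73%) and Ndufab1 490 of 6869 (7.13%). Counts of genes with shared stretches are uncertain, and the share does not say by how much.

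Promoters were looked at because nuclear respiratory genes are known as targets of NRF1 and of the ETS factor GABP. In the RefSeq promoter table (GRCm38.p6; 250 bases before to 50 after each start; 27025 symbols), 67 of the 90 nuclear members had an entry. Each motif was searched on both strands. The core of the NRF1 site, the 10-base palindrome in capitals in the windows printed below, was found in 5 of 67 members (7.46%) against 1.07% of all symbols. The same core with its middle 2 bases free, which contains the first, was found in 19 members (28.4%) against 7.0%. The ETS motif CCGGAAG was found in 16 members (23.9%) against 9.93%. Below, the window around the core is printed for 4 of these 5 members, with the core upstream of the start in each. These 4 were, as it turned out, all higher in WT growth cones. Uqcrc1, which was lower there, also holds the core, and its window is not printed. The core is in capitals, and the strand is that of the gene: Atp5k chr5:108434415-108434474 (minus), bases -75 to -16 from the start; Atp5g2 chr15:102671055-102671114 (minus), bases -67 to -8; Cox6a1 chr5:115349086-115349145 (minus), bases -187 to -128; Ndufa11 chr17:56717677-56717736 (plus), bases -85 to -26.
Atp5k: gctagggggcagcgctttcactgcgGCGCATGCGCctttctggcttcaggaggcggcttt
Atp5g2: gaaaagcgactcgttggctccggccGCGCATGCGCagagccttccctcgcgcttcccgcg
Cox6a1: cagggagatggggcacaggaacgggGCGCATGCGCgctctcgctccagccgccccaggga
Ndufa11: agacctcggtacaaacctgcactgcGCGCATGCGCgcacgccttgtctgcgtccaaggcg

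Among matched members, the free-middle form was present in 14 of 47 that were higher in WT growth cones, in 2 of 6 that were lower and in 3 of 12 tested without a call. The ETS motif was present in 12 of 47, 1 of 6 and 3 of 12. These are counts of letters in a window and not of bound sites.

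The nuclear members together took a larger share of all counts in growth cones than in somata, and the mitochondrial mRNAs did not. Nuclear members made up 1.56% ± 0.188 of counts in WT somata (range 1.39 to 1.88%, n = 5) and 2.38% ± 0.368 in WT growth cones (1.86 to 2.76%). The 2 ranges overlapped, with the lowest growth cone library just under the highest soma library. In the libraries labelled KO the shares were 1.51% ± 0.101 (1.37 to 1.65%) and 2.38% ± 0.485 (1.54 to 2.7%), and growth cone library 10 lay among the somata. The 13 mitochondrial mRNAs made up 0.399% ± 0.0698 in WT somata and 0.355% ± 0.0717 in WT growth cones, and 0.411% ± 0.0424 and 0.369% ± 0.130 in the libraries labelled KO. In a bulk sample, fewer cells of a type and less RNA per cell cannot be told apart, and growth cones are not whole cells, so these are shares of the RNA sequenced and not amounts.

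The ratio of nuclear to mitochondrial mRNA counts separated the compartments in both genotypes. In WT somata it was 3.66, 3.49, 4.26, 3.93 and 4.43 (libraries 12, 14, 22, 25 and 26). In WT growth cones it was 6.77, 9.14, 7.77, 5.74 and 5.05 (libraries 7 to 11). Every growth cone library was above every soma library, with means of 3.95 ± 0.395 and 6.89 ± 1.63. In somata labelled KO it was 3.36, 4.03, 4.31, 3.66 and 3.20, and in growth cones labelled KO 5.58, 9.36, 5.24, 6.82 and 7.09. The groups again did not overlap, with means of 3.71 ± 0.459 and 6.82 ± 1.62, and the genotypes overlapped in each compartment.

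**Figure D2:**
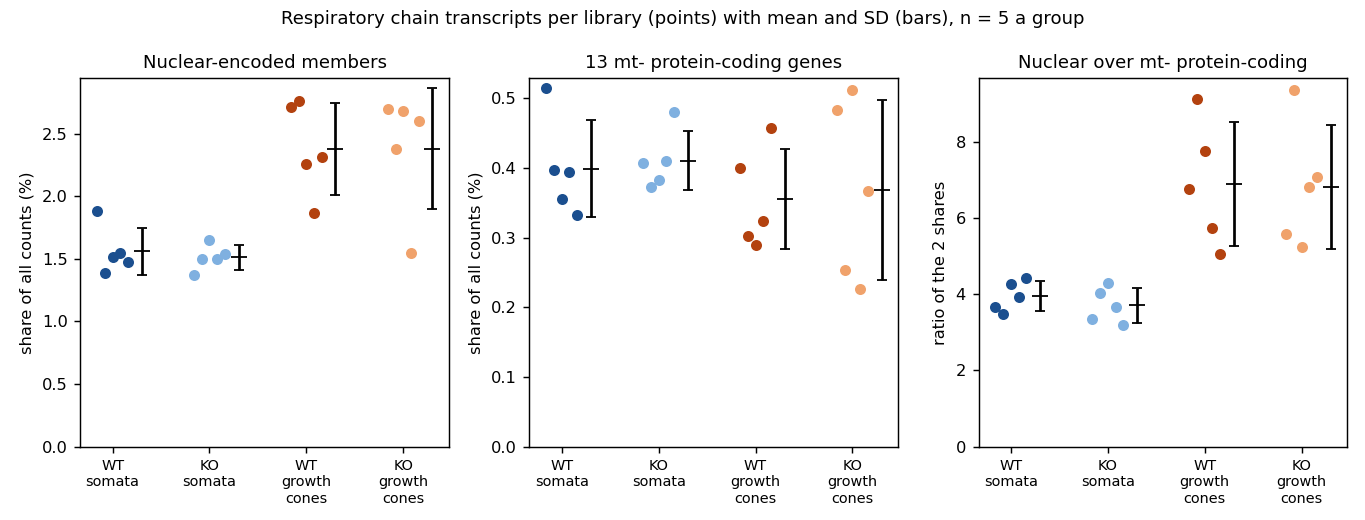
Share of all counts in the nuclear members and in the 13 mitochondrial mRNAs (percent), and the ratio of the 2, for each library by group, with group mean and SD. Nuclear shares average 2.38% in growth cones of either genotype against 1.56% and 1.51% in somata, and the ratios of the compartments do not overlap.

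The shift in share was uneven over the complexes. From WT somata to WT growth cones, the share of counts in nuclear genes rose from 0.439% to 0.835% for complex I and from 0.214% to 0.565% for complex IV in the means. It went from 0.178% to 0.236% for complex III, from 0.615% to 0.651% for complex V and from 0.115% to 0.0924% for complex II. Complex V thus held the largest nuclear share in somata, and complex I in growth cones. No share was tested.

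Per unit of exonic length (TPM, each library scaled to the same sum, computed from the deposited gene lengths), the order of the nuclear members changed. In WT somata the highest mean levels were those of Atp5b at 1902 TPM, Cox6a1 at 1637, Atp5a1 at 1438 and Cox6b1 at 1060; Atp5a1 and Atp5b encode the alpha and beta subunits, which form the catalytic head of ATP synthase. In WT growth cones the highest were Cox8a at 3448 TPM, Cox6a1 at 2173, Cox6b1 at 1666, Ndufa1 at 1620 and Ndufa2 at 1504. Atp5b (454 TPM) and Atp5a1 (418 TPM) moved from ranks 1 and 3 to ranks 41 and 43 of the nuclear members, and Uqcrc1 (635 to 112 TPM) from rank 10 to rank 67. Cox8a moved from rank 17 (511 TPM) to rank 1. The median level of nuclear protein-coding members in WT growth cones was 418 TPM for complex I, 271 for II, 679 for III, 402 for IV and 410 for V. In WT somata it was 258, 465, 441, 199 and 269 TPM. These medians depend on the genes listed. The 20 of complex IV include isoforms at or near 0 TPM in WT somata, among them Cox4i2, Cox8b, Cox8c and Cox7b2, which lower its median. The 18 of complex V include Atp5s and the second Atp5o entry without counts. Levels of different genes, and so the ranks and medians, also depend on the length used. The exonic length covers all annotated exons of a gene and can far exceed its coding length. Atp5l (16.3 TPM), Ndufb2 (31.3) and Ndufab1 (44.4), genes of this kind, stood at ranks 77, 76 and 74 in WT somata. The part of exonic length in the ranks and medians was not tested.

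Most nuclear subunit genes were higher in WT growth cones than in WT somata, but a distinct minority was lower. Of the 84 nuclear members tested, 57 were higher and 10 were lower by edgeR's quasi-likelihood test at a false discovery rate (FDR) of 0.05. Over all 15128 genes tested 42.8% were called, 23.1% as higher and 19.7% as lower. The median log2 fold change of the tested nuclear members was 1.09, and that of all genes tested was 0.07. In 47 nuclear members every growth cone library was above every soma library after scaling, and in 9 every one was below; 20.3% and 17.3% of all tested genes were so separated. These counts depend on transcript length, as set out below. Relative to genes of similar coding length, 8 nuclear members were higher and 37 lower, against 19.1% and 17.7% of all genes tested. Summed markers of astrocytes, oligodendrocyte lineage, vessels and hindbrain were higher in the same growth cone libraries, as given above. By gene, 8 of 10 tested astrocyte markers were called higher and 1 lower. Called higher were 7 of 10 oligodendrocyte lineage markers, 5 of 10 vessel, blood and choroid plexus markers and 10 of 10 hindbrain and spinal cord markers. Of 9 microglia markers 1 was higher and 1 lower.

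In complex I, 27 of 39 tested members were higher, 4 were lower, and the median log2 fold change was 1.10. The 7 nuclear core subunits, which carry the flavin and iron-sulfur clusters that move electrons, split differently from the 29 protein-coding accessory subunits around them. Of the core subunits 2 were higher and 3 lower (median -0.16); of the accessory subunits 24 were higher and 1 lower (median 1.10). The difference between the 2 kinds was not tested.

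Ndufs1, the largest core subunit, which carries iron-sulfur clusters (chr1:63143596-63176833, minus strand), stood at 164, 234, 215, 186 and 243 CPM in the WT soma libraries. In WT growth cones it stood at 40.1, 38.5, 26.3, 34.2 and 19.6 CPM. All growth cone libraries were several times lower, and the log2 fold change was -2.85 ± 0.23 (SE; edgeR adjusted p = 2.43e-06). Ndufv1, which binds NADH and the flavin, fell by 1.67 ± 0.19 on the log2 scale (edgeR adjusted p = 3.08e-05). Ndufa9, an accessory subunit that binds a nucleotide cofactor, fell by 1.32 ± 0.25 (0.00114).

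Other core subunits did not follow. Ndufv2, the iron-sulfur partner of Ndufv1, stood at 314, 204, 221, 224 and 207 CPM in WT somata and at 760, 739, 669, 562 and 507 CPM in WT growth cones. The groups did not overlap, and the log2 fold change was 1.33 ± 0.17 (edgeR adjusted p = 7.98e-05). Ndufs8, another iron-sulfur subunit, was higher by 1.20 ± 0.20 (0.000426). Ndufs3 and Ndufs7 did not pass the test, at -0.16 and 0.15.

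Among accessory subunits, Ndufa6 had the lowest p in complex I. It stood at 62.8, 46.5, 44.9, 48.3 and 47.1 CPM in WT somata and at 398, 380, 356, 253 and 246 CPM in WT growth cones (chr15:82350140-82354322, minus strand). Every growth cone library was above every soma library, with a log2 fold change of 2.58 ± 0.20 (edgeR adjusted p = 1.65e-06), a 5.96-fold difference. Ndufa2 (2.14 ± 0.22) and Ndufc1 (2.10 ± 0.22), small accessory subunits, were the next by p.

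In complex II, the only complex without a mitochondrial gene, 1 member was higher and 2 were lower. Sdha, the flavoprotein that oxidises succinate (chr13:74322254-74350280, minus strand), stood at 375, 382, 384, 368 and 463 CPM in WT somata and at 186, 114, 112, 127 and 151 CPM in WT growth cones. The groups did not overlap, and Sdha fell by 1.66 ± 0.17 on the log2 scale (edgeR adjusted p = 1.23e-05). Sdhb, the iron-sulfur subunit, fell by 0.48 ± 0.17 (0.0371). That call was lost under DESeq2 size factors (-0.40, adjusted p = 0.0811), upper-quartile scaling (-0.26, 0.269) and library totals (-0.33, 0.126). It was also lost without soma library 12, 22 or 25 or growth cone library 8, 9, 10 or 11, with adjusted p of 0.0595 to 0.174.

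The membrane anchors of complex II went otherwise. Sdhc stood at 152, 101, 118, 138 and 101 CPM in WT somata and at 181, 220, 246, 244 and 215 CPM in WT growth cones, without overlap. Its log2 fold change was 0.71 ± 0.16 (edgeR adjusted p = 0.00294). Sdhd was at -0.02 (0.939).

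In complex III, 5 of 8 members were higher and 2 lower, with a median of 1.38. The 2 that were lower were the core proteins that line the matrix side. Uqcrc1 (chr9:108936633-108949623, plus strand) stood at 781, 696, 795, 829 and 696 CPM in WT somata and at 165, 216, 211, 164 and 166 CPM in WT growth cones. All growth cone libraries were far below all soma libraries, at a log2 fold change of -2.18 ± 0.14 (edgeR adjusted p = 6.02e-07). Uqcrc2 fell by 1.52 ± 0.21 (0.000118).

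The small subunits of complex III were higher. Uqcrh, the hinge protein that contacts cytochrome c1, stood at 87.1, 74.3, 65.3, 77.0 and 68.8 CPM in WT somata and at 338, 315, 244, 185 and 274 CPM in WT growth cones. The groups did not overlap, and the log2 fold change was 1.73 ± 0.19 (edgeR adjusted p = 2.4e-05). Uqcr10 was higher by 1.75 ± 0.20 and Uqcrb by 1.65 ± 0.19. Uqcrfs1, the Rieske iron-sulfur protein and the one nuclear catalytic subunit of complex III among these members, was at -0.24 (edgeR adjusted p = 0.353).

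In complex IV, 12 of 16 tested nuclear members were higher (median 1.35) and the other 4 did not pass. All nuclear subunits of this complex are accessory, since its catalytic core is mitochondrial. Cox8a, the ubiquitous form of a small membrane subunit (chr19:7215153-7217616, minus strand), stood at 133, 84.2, 89.4, 94.1 and 60.4 CPM in WT somata. In WT growth cones it stood at 1056, 994, 796, 477 and 947 CPM. Every growth cone library was above every soma library, with a log2 fold change of 3.08 ± 0.27 (edgeR adjusted p = 4.41e-06), an 8.46-fold difference. Cox5b, a subunit that binds zinc, was higher by 1.93 ± 0.23 and Cox7c, a small membrane subunit, by 2.20 ± 0.27.

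Complex IV has tissue isoforms of several subunits, and these differed in level as well as in fold. Cox6b2, the testis isoform of Cox6b (chr7:4751792-4753094, minus strand), stood at 1.24, 0, 0, 0.222 and 0.264 CPM in WT somata and at 31.8, 28.6, 17.9, 9.63 and 22 CPM in WT growth cones. The groups did not overlap, and its log2 fold change was 5.86 ± 1.25 (edgeR adjusted p = 0.00253), while the common isoform Cox6b1 was higher by 0.98 ± 0.21 (0.00246). Cox7a1, the heart and muscle isoform, stood at 0.0604, 0.432, 0.411, 0.527 and 0 CPM in WT somata and at 3.06, 5.76, 5.98, 1.33 and 0.716 CPM in WT growth cones. It was low throughout but did not overlap (3.40 ± 1.08, edgeR adjusted p = 0.0231; 0.0726 without the filter on low counts, and 0.0502 to 0.0548 without soma library 12, 14 or 22); its partners Cox7a2 and Cox7a2l were higher by 1.18 and 1.55.

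Cox4i2, the lung and hypoxia isoform of Cox4, was at 0 in all 5 WT soma libraries and at 1.20, 0, 0, 0.0758 and 4.94 CPM in WT growth cones. It was thus highest in library 11, at 0 in 2 growth cone libraries, and it did not pass the filter for testing. Its common partner Cox4i1 was higher by 0.89 (edgeR adjusted p = 0.00257). Cox6a1, the common form, was higher by 0.72 ± 0.18 (0.00558), whereas the muscle form Cox6a2 stood at 0 to 3.24 CPM in growth cones and 0.527 to 6.26 CPM in somata and did not pass the test (-1.39 ± 1.43, 0.464). Ndufa4 was at 0.33 (0.217), Cox6c at 1.33 and Cox7b at 1.40, the last 2 being higher. Cox7b2 reached at most 3.61 CPM in WT growth cones, and Cox8b was at 0 in all WT libraries.

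In complex V, 12 of 17 tested members were higher and 2 lower, with a median of 0.99. The 2 lower members were the catalytic pair. Atp5b (chr10:128083273-128090391, plus strand) stood at 2312, 2087, 2355, 2442 and 2449 CPM in WT somata and at 893, 737, 702, 660 and 828 CPM in WT growth cones. The groups were far apart, and Atp5b fell by 1.75 ± 0.13 on the log2 scale (edgeR adjusted p = 1.33e-06). Atp5a1 fell by 1.49 ± 0.11 (1.33e-06).

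The stalk and membrane subunits of complex V were mostly higher. Atp5e, the small epsilon subunit of the central stalk, stood at 109, 59.8, 55.3, 68.4 and 62.4 CPM in WT somata and at 442, 478, 298, 260 and 424 CPM in WT growth cones. The groups did not overlap, and its log2 fold change was 2.29 ± 0.25 (edgeR adjusted p = 2.07e-05). Atp5j, coupling factor 6 of the peripheral stalk, was higher by 2.18 ± 0.19 (4.78e-06). Of the 3 genes that encode the identical ring subunit c, Atp5g1 (1.22) and Atp5g2 (1.27) were higher and Atp5g3 did not pass (0.37, 0.0924). The gamma subunit gene Atp5c1 (0.05) and the peripheral stalk gene Atp5f1 (-0.10) did not pass. Atp5s, which is not a subunit of the enzyme, was higher by 0.98 (0.0284).

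**Figure D3:**
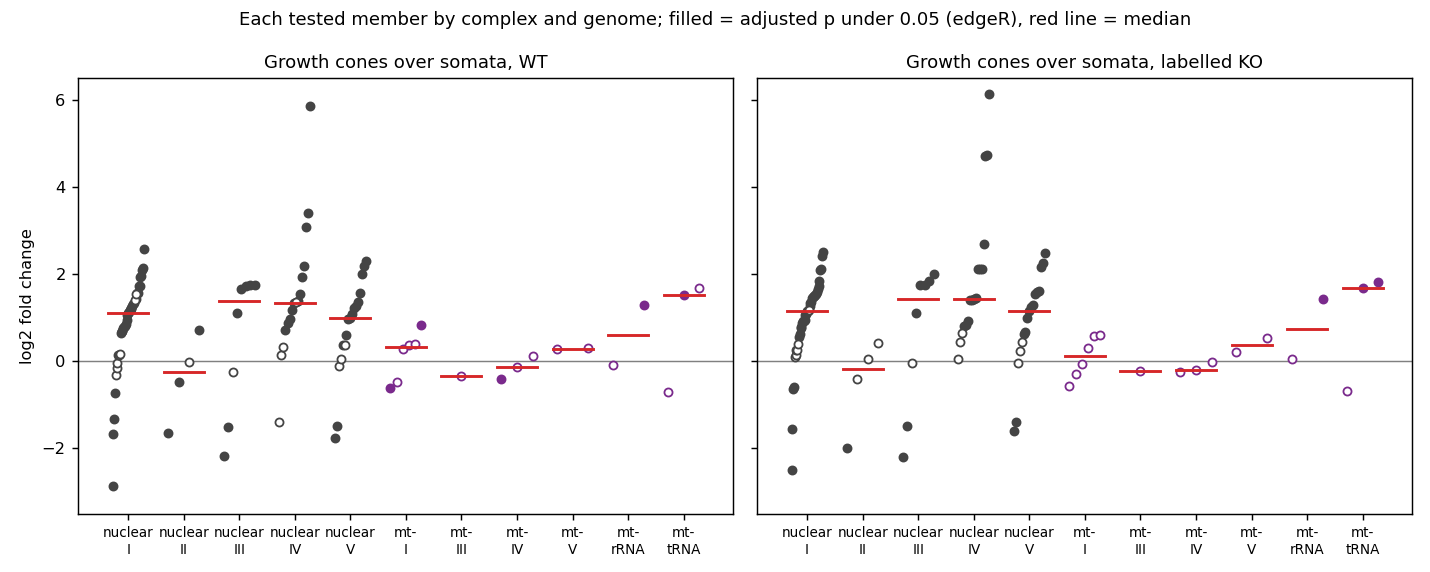
Log2 fold change of each tested member in growth cones against somata, by complex and genome, in WT and in libraries labelled KO, with called members marked and medians drawn. Nuclear subunits of complexes I, III, IV and V lie mostly above 0 with a few far below, and mitochondrial mRNAs lie near 0.

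Of the 17 tested genes of the mitochondrial genome, 3 were higher and 2 lower in WT growth cones (median 0.28), against 23.1% and 19.7% of all genes tested. These calls depend on the processing. Under the offsets for length described below, 0 were higher and 12 lower with the exonic length (median -1.26), and 3 higher and 4 lower with the coding length (-0.51). Of all 15128 genes tested, 3053 were higher and 2588 lower with the exonic length, and 2884 and 2679 with the coding length. With upper-quartile scaling, which raised the median of all genes by 0.21, all 5 called genes were higher. Without WT soma library 25 or WT growth cone library 9, 3 genes were called in all. Of the 12 tested mRNAs, mt-Nd2 was higher and mt-Nd1 and mt-Co1 lower. mt-Nd2, a membrane subunit of complex I, stood at 173, 127, 98.4, 133 and 74.0 CPM in WT somata and at 232, 240, 244, 198 and 263 CPM in WT growth cones (log2 fold change 0.83 ± 0.21, edgeR adjusted p = 0.00652). All its growth cone libraries were above its soma libraries in CPM, although not after TMM scaling.

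mt-Nd1 fell by 0.60 ± 0.17 (edgeR adjusted p = 0.0123; 0.0933 with upper-quartile scaling). Its soma library 12 was high, at 1461 CPM against 778 to 1025 in the others, and growth cones stood at 658 to 913 CPM. Without soma library 12 its adjusted p was 0.0535. mt-Co1 fell by 0.40 ± 0.14 (0.033), and its groups overlapped, at 853 to 1135 and 645 to 1002 CPM. The mt-Co1 call was lost under all other scalings run, with DESeq2 (-0.32, adjusted p = 0.0575) and with all 20 libraries in 1 fit (-0.45, 0.0713). It was also lost without soma library 12 or 25 or growth cone library 7, 8, 9 or 10 (0.0512 to 0.149).

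The most abundant mitochondrial mRNA, mt-Cytb, stood at 1717, 1465, 1192, 1367 and 1153 CPM in WT somata and at 1517, 1036, 880, 1003 and 1585 CPM in WT growth cones. The groups overlapped and the difference did not pass the test (-0.33 ± 0.19, edgeR adjusted p = 0.177). mt-Nd4, mt-Nd5 and mt-Nd6, further complex I subunits, did not pass either, at 0.37, -0.47 and 0.40. The genes with near-complete nuclear copies gave wide errors: mt-Co2 0.12 ± 0.41, mt-Co3 -0.12 ± 0.37, mt-Atp6 0.30 ± 0.46 and mt-Nd3 0.29 ± 0.82.

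The 2 mitochondrial rRNAs differed from each other. mt-Rnr1, the rRNA of the small ribosomal subunit, stood at 46.5, 38.3, 29.3, 29.1 and 19.7 CPM in WT somata and at 85.4, 83.4, 52.4, 68.4 and 147 CPM in WT growth cones. All growth cone libraries were above all soma libraries (log2 fold change 1.29 ± 0.31, edgeR adjusted p = 0.00574). mt-Rnr2, of the large subunit, stood at 589 ± 162 and 616 ± 152 CPM (n = 5 each) and was at -0.07 ± 0.21 (0.806). Of 22 tRNA genes 3 were tested, and mt-Tc was higher (1.51 ± 0.56, 0.0467) at a mean level of 0.215 CPM in WT somata.

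Within the nuclear members the fold change followed the length of the coding sequence, as it did less steeply over all genes. Coding length is that of the longest annotated coding sequence of each gene, and counts per gene do not show which isoform was sequenced. Across 80 nuclear members Spearman's rho between coding length and the WT log2 fold change was -0.69, and across 12647 genes it was -0.31; genes are not independent replicates, and all points share the same 10 libraries. In the libraries labelled KO the values were -0.71 over 81 members and -0.33 over 12791 genes. The length classes that follow were chosen after the values were seen. With a coding length up to 300 bases, 19 of 21 members were higher in WT growth cones (median 1.74), against 74.6% of the 236 genes of that length (median 1.65). Above 300 and up to 450 bases, 21 of 25 were higher (median 1.22), against 67.2% (median 1.41). Above 450 and up to 600 bases, 12 of 14 were higher (median 0.85), against 44.4% (median 0.78).

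Longer members were less often higher, and those above 1000 bases were mostly lower. Above 600 and up to 1000 bases, 3 of 9 were higher and 1 lower (median 0.05), against 27.8% higher and 15.6% lower over all genes of that length (median 0.32). Above 1000 bases, 1 of 11 was higher and 9 lower (median -1.52), against 11.1% higher and 26.9% lower over 8671 genes (median -0.41). Among the lower members were Atp5a1, Atp5b, Ndufs1, Sdha and Uqcrc1. The 1 higher member was Ndufv3 (1.58 ± 0.25, coding length 1404), a flavoprotein accessory subunit. Its place in this class rests on its longest annotated coding sequence. Several catalytic subunits are among the longest members, so length and catalytic role go together in part. The catalytic subunits Ndufv2 (1.33) and Ndufs8 (1.20) were higher and lie outside the class above 1000 bases. Uqcrc1, a lower member of that class, was not counted as catalytic. The parts of length and of catalytic role were not tested.

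**Figure D4:**
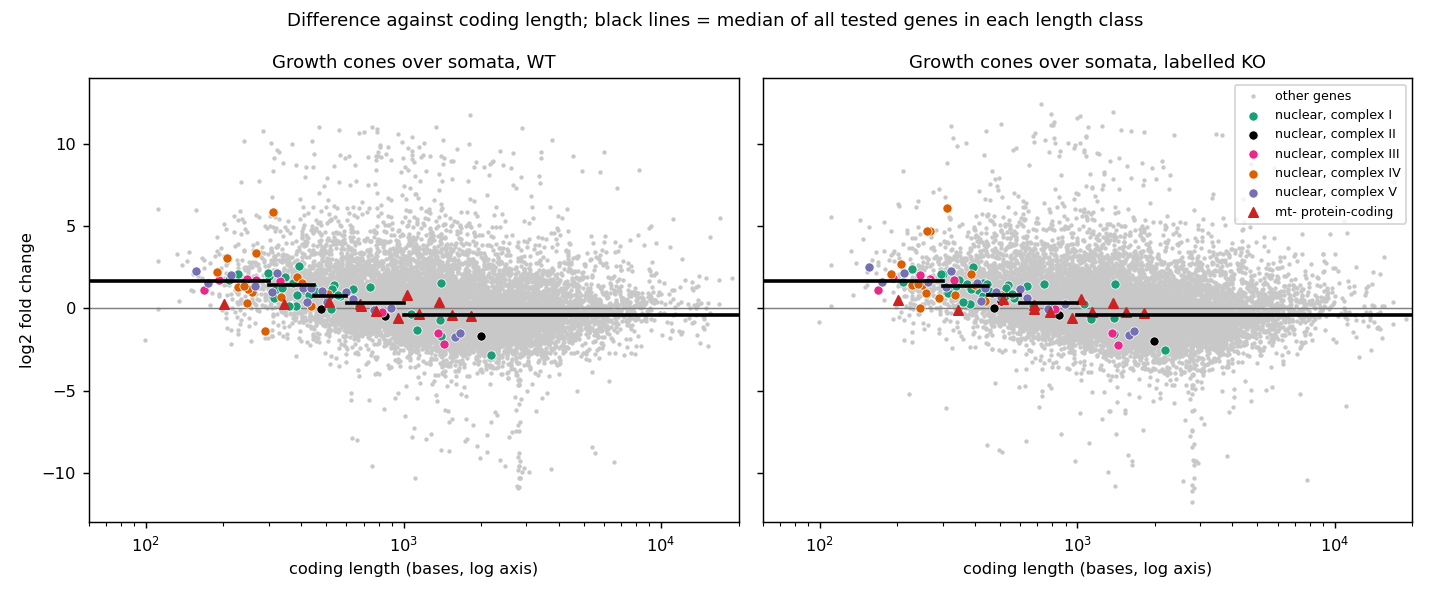
Log2 fold change of growth cones against somata by coding length (bases, log axis) in WT and in libraries labelled KO, with nuclear members coloured by complex, mitochondrial mRNAs as triangles, other tested genes in grey and the median of all tested genes in each length class as black lines. Nuclear members up to 450 bases lie mostly above 0, and of the 11 above 1000 bases in WT only Ndufv3 is above 0.

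Each library's trend of counts with length was then removed by an offset before testing, so that a gene was compared with genes of similar assigned length. The exonic length of the table covers all annotated exons of a gene and can far exceed its coding length. Some members therefore moved in opposite directions in WT. Atp5l went from 0.99 to 1.48 with the exonic length and to -0.71 with the coding length. Ndufb2 went from 0.65 to 1.13 and -1.05, and Ndufab1 from 0.96 to 1.44 and -0.24. With the exonic length of the table, 28 nuclear members were higher and 24 lower in WT growth cones, against 3053 and 2588 of all 15128 genes tested. All 28 had been higher in the first fit, and all 10 of the first lower calls stayed. With the coding length, an alternative added after seeing the data, 8 were higher and 37 lower, and the median of the nuclear members was -0.30. Genes without a coding sequence entered this offset with their exonic length, among them the pseudogenes and the mitochondrial rRNA and tRNA genes. The 8 were Atp5j, Cox5b, Cox6b2, Cox8a, Ndufa6, Ndufs8, Ndufv2 and Ndufv3; 17 members higher in the first fit were lower in this one, among them Cox6a1 (-0.88), Cox6b1 (-0.95) and Uqcr10 (-0.46). Of the 10 members first called lower, 9 were lower here too, among them Atp5a1, Ndufv1 and Uqcrc2. Ndufs1 was at -2.09, Uqcrc1 at -1.68, Atp5b at -1.18, Sdha at -0.94, Cox8a at 0.95, Ndufa6 at 1.14 and Cox6b2 at 4.32 in that fit. Over all genes tested, 19.1% were higher and 17.7% lower in that fit. The remaining members first called higher either lost the call or turned to lower, so those calls rest on whether the length trend is counted as part of the difference.

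The compartments differed in nearly the same members in the libraries labelled KO. Of 85 nuclear members tested, 60 were higher and 9 lower in growth cones (median 1.16, against 0.11 over all genes), where 38.6% of 15410 genes were called, 21.6% as higher and 17% as lower. Groups did not overlap for 37 higher and 8 lower nuclear members, against 18.6% and 17.5% of all genes tested. In both genotypes 56 members were higher, of 57 and 60, and 9 were lower, of 10 and 9; 0 had opposite calls. WT and labelled-KO comparisons share no library. The offset for coding length left 10 higher and 31 lower. In these libraries too, summed markers of several other cell types were higher in growth cones. The hindbrain and spinal cord sum was at 0 to 0.0771 CPM in somata and 72.2 to 273 CPM in growth cones.

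By complex, the labelled-KO counts were 29 higher and 4 lower of 39 in complex I (median 1.15), 1 lower and 3 not called in complex II (-0.17), 5 higher and 2 lower of 8 in complex III (1.44), 14 higher and 3 not called in complex IV (1.44) and 12 higher and 2 lower of 17 in complex V (1.16). Cox8a stood at 115, 121, 142, 123 and 122 CPM in somata and at 995, 909, 856, 447 and 1040 CPM in growth cones labelled KO. The groups did not overlap (2.7 ± 0.24, edgeR adjusted p = 7.76e-06). Sdha was at 343 to 398 CPM in somata and at 111, 93.3, 159, 69.9 and 56.1 CPM in growth cones. It fell by 1.99 ± 0.27 (0.000138). Ndufs1 was at -2.50 ± 0.29, Uqcrc1 at -2.20, Atp5b at -1.6 and Ndufa6 at 2.51 ± 0.24, each without overlap or change of direction from WT.

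Few members were called in a single genotype, and the difference between genotypes is tested below. Sdhc was called higher in WT only (0.43 in the labelled-KO comparison, edgeR adjusted p = 0.0773) and Sdhb lower in WT only (-0.39, 0.112). Ndufs4, an accessory subunit needed for a stable complex I, was called higher in the labelled-KO comparison only (0.76, 0.0409; WT -0.04). So were the pseudogenes Cox6c2 (2.11) and Ndufa11b (1.67) and Ndufa4l2, a hypoxia-responsive relative of Ndufa4. Ndufa4l2 stood at 0 to 0.705 CPM in somata and at 4.82, 1.61, 5.88, 4.64 and 14.7 CPM in growth cones labelled KO, without overlap (4.73 ± 1.40, 0.019; 0.0514 without soma library 14). The Cox6c2 call was lost without soma library 14, 15, 25 or 26 (0.0523 to 0.06). Sdhc passed without growth cone library 10 labelled KO (0.039), and Sdhb without library 7 (0.00794). Of the mitochondrial genes, mt-Rnr1 (1.43 ± 0.32, 0.00433) and the tRNA genes mt-Tc (1.70) and mt-Tn (1.83) were higher, and the median of the 17 tested was 0.06. The 12 tested mRNAs did not pass. The count of 3 fell to 1 without soma library 15, 22, 25 or 26 or growth cone library 11 labelled KO, and rose to 5 without growth cone library 10.

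Genes around the respiratory chain, taken from lists of other pathway genes, were counted in the same fits, where 23.1% of all genes tested were higher and 19.7% lower in WT. Of 47 tested assembly factors, which build the complexes but are not part of them, 23 were higher and 9 lower in WT growth cones (median 0.66). Uqcc2, a complex III assembly factor, was higher by 2.67 ± 0.24, and Cox15, which makes the heme of complex IV, fell by 2.51 ± 0.20. Of 15 electron carrier and ubiquinone synthesis genes 2 were higher and 3 lower (median -0.05), with cytochrome c (Cycs) at 0.62 among the higher. The same lists gave 22 higher and 5 lower, and 2 and 2, in the labelled-KO comparison, against 21.6% and 17% of all genes. Under the offset for coding length, 10 assembly factors were higher and 14 lower in WT (median -0.48), and 1 and 2 of the carrier list. Of all genes tested in that fit, 19.1% were higher and 17.7% lower.

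Lists of upstream metabolism held more lower than higher calls, though fewer were lower under the offset for coding length. Of 18 genes of the tricarboxylic acid cycle and pyruvate dehydrogenase, 11 were lower in WT growth cones (median -0.90) and 12 in the labelled-KO comparison, and the others did not pass. Cs, citrate synthase, fell by 1.23. Of 17 glycolytic genes 4 were higher and 10 lower (6 and 9 in labelled KO; WT median -1.01): Ldha fell by 1.67 and Eno1 by 1.75, while Aldoc, also in the astrocyte list, was higher by 3.43. Of all genes tested with a coding length above 1000 bases, 26.9% were lower in WT. Under the offset, 1 gene of the cycle list was higher and 7 lower in WT (median -0.46), and 0 and 5 in labelled KO. For glycolysis the counts were 4 and 9 in WT (median -0.57), and 6 and 5 in labelled KO.

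The lists of mitochondrial maintenance had calls in both directions. Over all genes tested, 23.1% were higher and 19.7% lower in WT, and 21.6% and 17% in labelled KO. Of 23 genes of mitochondrial DNA and RNA upkeep, 3 were higher and 5 lower in WT (median -0.45; 2 and 5 in labelled KO), and Lrpprc, which stabilises mitochondrial mRNAs, fell by 2.12. Of 24 genes of the outer membrane, fission, fusion and transport, 6 were higher and 8 lower in either genotype (WT median -0.03). The fission adaptor Fis1 was higher by 2.23, and the fusion protein Mfn2 fell by 1.87. Of 10 tested biogenesis regulators 1 was higher (Yy1, 2.28) and 1 lower (Pprc1, -2.24) in WT, and 1 and 2 in labelled KO. Under the offset these 3 lists gave 2 and 2, 5 and 7, and 1 and 1 in WT, against 19.1% higher and 17.7% lower over all genes tested.

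Between genotypes, no respiratory chain gene passed the test in either compartment, which does not show that the genotypes were alike. In somata, 0 of 82 nuclear and 0 of 16 mitochondrial members were called by edgeR, where 0.731% of 14911 genes were called. At an unadjusted p under 0.05 there were 2 nuclear and 0 mitochondrial members, against 8.57% of all genes. DESeq2 and limma-voom called 0 as well, and the coding-length offset called 1 nuclear member. Of all 14911 genes tested, they called 402, 138 and 115, in that order. The 3 members with the lowest p were Cox8a at 0.42 ± 0.17 (edgeR adjusted p = 0.482), Atp5g1 at -0.32 ± 0.14 (0.574) and Ndufa4 at 0.24 ± 0.14 (0.79).

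In growth cones, 0 of 86 nuclear and 0 of 17 mitochondrial members were called by edgeR, as were 0% of all 15419 genes. None reached an unadjusted p under 0.05, against 2.13% of all genes; DESeq2 and limma-voom called 0, with 1 nuclear member each at an unadjusted p under 0.05. The lowest p belonged to Cox6b2 (-1.0 ± 0.51), Ndufs4 (0.54 ± 0.29) and Sdha (-0.48 ± 0.29), each with an edgeR adjusted p of 0.999. Cox6b2 stood at 7.33, 10.7, 10.4, 8.17 and 17.9 CPM in growth cones labelled KO, overlapping the WT range of 9.63 to 31.8. Median log2 fold changes of nuclear members were -0.06 in somata and 0.02 in growth cones.

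The difference between the genotype effects of the 2 compartments was tested over all 20 libraries. By edgeR 0 of 87 nuclear and 0 of 19 mitochondrial members were called, where 0.0397% of 17645 genes were, and 1 nuclear member had an unadjusted p under 0.05, against 6.98% of all genes; DESeq2 and limma-voom called 0. That member was Ndufs4 (0.76 ± 0.36, edgeR adjusted p = 0.692). Ndufs4 stood at 171, 130, 129, 82.9 and 123 CPM in WT growth cones and at 167, 213, 198, 82.0 and 252 CPM in those labelled KO, with overlap. The next were mt-Tm (-1.68 ± 0.81, edgeR adjusted p = 0.72) and Ndufa9 (0.64 ± 0.33, 0.753).

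**Figure D5:**
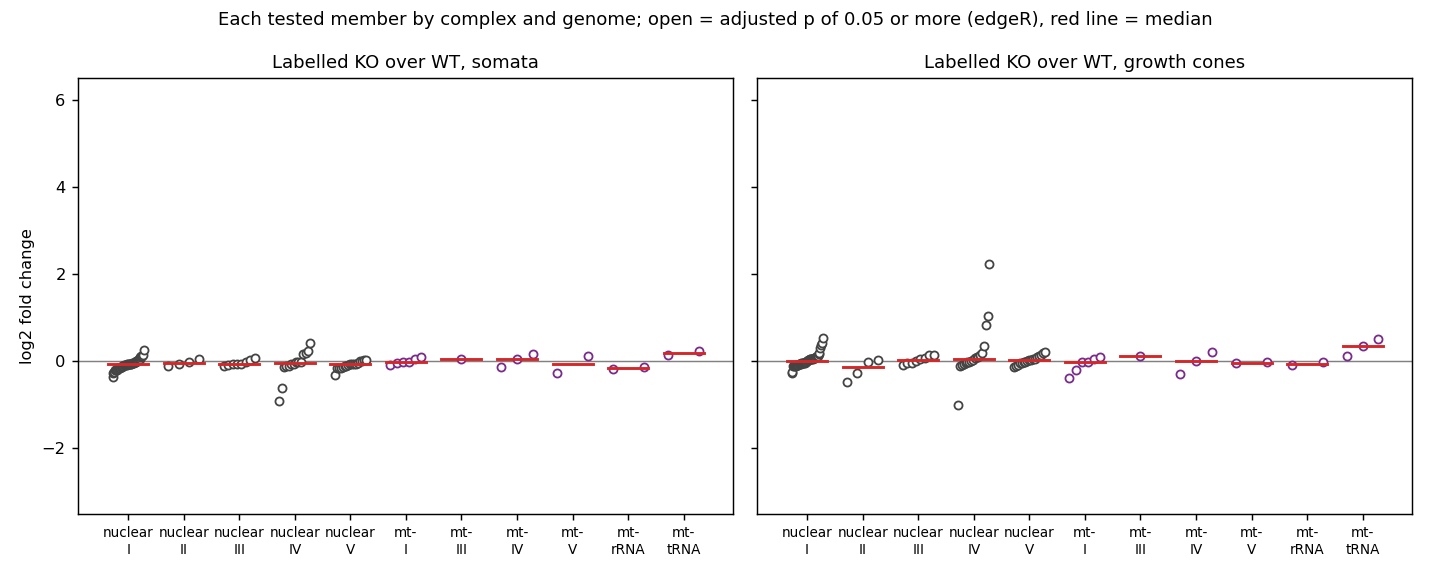
Log2 fold change of each tested member in libraries labelled KO against WT, by complex and genome, in somata and in growth cones. No member is called in either compartment, and the medians of the nuclear members lie at -0.06 and 0.02.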

How the data were processed

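RNA-seq counts of 20 libraries in 4 groups of 5 were used as deposited by the authors: raw counts per gene in 1 table, with no scaling between libraries and with the featureCounts column layout per the file headers. Per the submitters' processing notes, Trimmomatic 0.39, STAR 2.7.1a and featureCounts 1.5.0 were used and the build was GRCm39. The coordinates of the table match GRCm38: GENCODE M21 gives an identical set of exons for 98.2% of genes and supplied symbols and biotypes, and all coordinates here are GRCm38. Treatment of strand and of reads mapping to several places is not given in the sources used here, so overlapping and antisense genes cannot be told apart. Libraries were made with SMART-seq v4 and Nextera XT, per the labels' protocols. The table holds 0 rows naming no gene, and 0 columns were left unused.

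Groups came from the library titles. edgeR 4.0.16 (R 4.3.3; filterByExpr with minimum count 10, TMM scaling, quasi-likelihood F test, Benjamini-Hochberg adjustment over all genes tested, FDR 0.05) was run on the 2 groups of each comparison, and on all 20 libraries for the interaction. Every adjusted p for a single gene is from this test unless another is named. Errors of log2 fold changes are standard errors derived from the F statistic. CPM values are counts scaled to the library total, and TPM values use the deposited gene length. Lack of overlap was judged on TMM-scaled CPM. The test was checked on simulated counts. Alternatives were other scalings, no filter, DESeq2 1.42.0, limma-voom (limma 3.58.1), offsets for gene or coding length, a replicate block, all libraries in 1 fit, an FDR of 0.10 and each library left out. Replicate libraries differed by more than sampling noise, and none were merged. A count of 3 in the shallowest library is 0.158 CPM, and floors cover counting error only.

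Members were named by role: per complex and direction the 3 with the lowest p, all core subunits, isoform pairs, Sdh genes and mitochondrial mRNAs and rRNAs, and the 3 lowest p between genotypes. Ndufa1, Atp5s, Atp5c1, Atp5f1, Ndufv3, Uqcr10 under the offset, Ndufa9 and tRNA genes outside this rule were named after their values were seen. Some genes under this rule are not reported here by name. The members and lists were chosen with earlier results of these data known.

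Experiment numbers were shared by 4 pairs of soma libraries and 5 pairs of growth cone libraries across genotypes. Deviations of same-numbered libraries from their group means correlated weakly (-0.05 to 0.09), and no block was used in the fits reported. WT soma libraries 14, 22 and 25 and WT growth cone libraries 7, 9, 10 and 11 still correlated best with their own number. Shared 50-base stretches were counted on both strands of GENCODE M21 transcripts.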

Additional observations from a re-analysis of the deposited data

Results flagged for a closer look

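Each of 59 measures was examined in the 4 groups of 5 libraries for a highest or lowest library standing apart from the others of its group (gap above Dixon's 95% critical value). Chance marks about 1 in 20 groups; 32 of 236 were marked, and measures of the same library are not independent.

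Growth cone library 10 labelled KO was low in 7 measures. Its share of counts in nuclear members was 1.54%, against 2.38 to 2.7% in the other 4. Small subunits were low in it as well: Atp5k stood at 100 CPM against 239 to 266 CPM, Cox6c at 246 CPM against 496 to 519 CPM, and Uqcrq at 308 CPM against 706 to 798 CPM. Cox7b stood at 182 CPM, Ndufa2 at 187 CPM and Uqcr10 at 161 CPM. Without this library, 75 nuclear members were called between the compartments in the libraries labelled KO, against 69 with it.

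WT soma library 12 was high in 11 measures. Small subunits of complex V stood at 109 CPM (Atp5e), 153 CPM (Atp5j2) and 81 CPM (Atp5k). In complex IV, Cox4i1 stood at 435 CPM, Cox6b2 at 1.24 CPM, Cox7a2 at 233 CPM and Cox7b at 191 CPM. In complexes I and III, Ndufa6 stood at 62.8 CPM, Ndufv2 at 314 CPM, Uqcr10 at 134 CPM and Uqcrb at 147 CPM. For Cox7a2 the other 4 libraries stood at 138 to 151 CPM.

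Soma library 22 labelled KO was high in 7 measures: Atp5e at 84.1 CPM, Cox5b at 159 CPM, Cox6c at 193 CPM, Cox7c at 80.9 CPM, Cox8a at 142 CPM, Ndufa2 at 87.5 CPM and Ndufa3 at 73.7 CPM. WT soma library 26, the shallowest, was high in Sdha at 463 CPM, Uqcrc2 at 291 CPM and Ndufa4l2 at 0.475 CPM. WT growth cone library 8 was high in Ndufa4l2 at 5.43 CPM, WT growth cone library 11 in mt-Atp8 at 3.75 CPM and mt-Co3 at 35.4 CPM, and soma library 26 labelled KO in mt-Nd1 at 1184 CPM.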

How the results depend on the processing

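Offsets for length moved the compartment results most. With the exonic length, 28 nuclear members were higher and 24 lower in WT growth cones and 31 and 19 in the labelled-KO comparison. With the coding length these counts were 8 and 37, and 10 and 31 (41 in all). An offset compares a gene with genes of similar assigned length, which by construction removes what genes of that assigned length share. The exonic length covers all annotated exons, so a gene with a short coding sequence can be assigned a long one. Median log2 fold changes of nuclear members turned to -0.30 (WT) and -0.26 (labelled KO) under the coding length, and those of mitochondrial members to -0.51 and -0.52, or to -1.26 and -1.10 under the exonic length. Over all nuclear members, 17 higher calls became lower calls in WT and 14 in labelled KO under the coding length, and 6 and 3 under the exonic length. Of the genes chosen by the naming rule alone, these turned direction under the coding length in WT: Atp5e (-0.13), Atp5g1 (-0.15), Atp5g2 (-0.01), Atp5j2 (-0.52), Cox4i1 (-0.20), Cox6a1 (-0.88), Cox6b1 (-0.95), Cox6c (-0.70), Cox7a2 (-0.77), Cox7b (-0.58), Sdhc (-0.34), Uqcr10 (-0.46), Uqcrh (-0.17) and mt-Co1 (0.13). In the labelled-KO comparison, of the same genes, Atp5g2 (-0.06), Cox4i1 (-0.27), Cox6a1 (-0.80), Cox6b1 (-0.94), Cox6c (-0.54), Cox7a2 (-0.49), Cox7b (-0.49), Sdhc (-0.64) and Uqcr10 (-0.30) turned. Of these genes under the exonic length, Cox6a1 (-0.75), Cox6b1 (-0.53), Cox7a2 (-0.10) and mt-Nd2 (-0.36) turned in WT, and Cox6a1 (-0.67) and Cox6b1 (-0.54) in labelled KO. Under the scalings and tests run besides the offsets, 37 to 40 of the 40 named WT genes kept direction and call.

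Mitochondrial calls were few and moved easily: 5 in WT became 3 with DESeq2 or all 20 libraries in 1 fit and 12 with the exonic length, and 3 in labelled KO became 1 with DESeq2 or without the filter and 13 with the exonic length. In somata, labelled KO against WT, 1 nuclear member was called under the coding length. Leaving out each library gave 60 to 67 nuclear calls in WT (51 to 58 higher, 9 to 10 lower) and 64 to 75 in labelled KO (55 to 66 higher, 8 to 10 lower), 3 to 5 and 1 to 5 mitochondrial calls, and 0 in each genotype comparison and the interaction. Medians of mitochondrial members turned sign without some libraries: they ranged over -0.02 to 0.55 in WT, -0.19 to 0.18 in labelled KO and -0.21 to 0.15 between genotypes in growth cones. The cause of these moves was not tested, beyond what an offset or a smaller set of libraries does by construction.

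With a replicate block on the shared experiment numbers, 0 members were called in each genotype comparison and in the interaction, as without it. Deviations of same-numbered libraries correlated at -0.05 to 0.09. WT soma libraries 14, 22 and 25 and WT growth cone libraries 7, 9, 10 and 11 correlated best with the labelled-KO library of their own number. Soma library 26 and growth cone library 8 did not. The libraries may thus be paired by number, and the fits reported leave this out. No paired analysis was possible between compartments because growth cones and somata share no experiment number. Depth limits genes near 0.158 CPM (3 counts in the shallowest library), among them most tRNA genes, Cox4i2, Cox7b2 and Cox8b.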

Other observations

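WT soma library 26, the shallowest library, was the lowest of its group for several short mitochondrial genes. mt-Co3 stood at 8.49 CPM in it and at 26.5 to 37.3 CPM in the other 4 libraries. mt-Atp6 stood at 3.27 CPM against 11.6 to 17.9 CPM, mt-Atp8 at 0.316 CPM against 1.64 to 2.78 CPM, and mt-Nd3 at 0 against 0.704 to 1.12 CPM. mt-Cytb, which shares no 50-base stretch with another gene, stood at 1153 CPM in it against 1192 to 1717 CPM. Without this library, 63 nuclear members (53 higher, 10 lower) and 5 mitochondrial genes were called between the compartments in WT, and the median log2 fold change of the mitochondrial members was -0.02.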
